A study of Drosophila melanogaster with 2 samples.

Results

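The Notch pathway genes described here are the receptor gene N, the ligand genes Dl and Ser, the nuclear effector genes Su(H), H and mam, and the genes neur, kuz and fng, whose products act on the ligands or the receptor. These 9 genes were chosen by their place in the pathway, with no binding value in the rule, from the 13945 protein-coding genes of the main chromosome arms. DNA bound by the protein CG7101 was recovered by ChIP-seq, that is, immunoprecipitation of sonicated chromatin followed by sequencing, from entire adult females of Drosophila melanogaster. The flies were of unknown age and all came from a transgenic line that stably carries CG7101 joined at its C-terminus to GFP, and the antibody was against GFP. There were 2 biological replicates of this 1 genotype and no second condition, so no comparison between conditions and no test was made, and control reads were not used here. A whole fly mixes many tissues, so the cells in which a gene was bound are not known.

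The peak lists, 1 per replicate and 1 for both replicates pooled, held 30000 peaks each. Of the pooled peaks, 6486 were in a list filtered by irreproducible discovery rate (IDR), a measure of how well peak ranks repeat between replicates. Signal is the strength the authors' peak caller gave a peak, on an unstated scale, and it is compared only within a list. The IDR list held every pooled peak down to a signal of 142, so it amounts to a cut on pooled signal. A summit, the position of highest signal in a peak, was assigned to a gene when it lay inside the gene or at a promoter, here up to 500 bp from any annotated transcription start site (TSS). By this rule 16 of the IDR summits and 89 of the 30000 pooled summits belonged to the Notch pathway genes. Read depth is unknown from peak lists.

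Notch signalling passes between cells that touch. Delta or Serrate on one cell binds the Notch receptor on its neighbour, the protease Kuzbanian and then gamma-secretase cut the receptor, and the freed intracellular domain enters the nucleus. There it joins the DNA-binding protein Suppressor of Hairless, encoded by Su(H), and the coactivator Mastermind, encoded by mam. In adult females the pathway is known for its roles in the ovary, in the germline stem cell niche and the follicle cells, and in the stem cells of the gut.

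In the IDR list, promoters of 2 nuclear effector genes and 2 modifier genes were bound, and those of the receptor and ligand genes were not. An IDR summit lay at a promoter of 4 of the 9 genes (Su(H), mam, neur and kuz), against 33.3% of all protein-coding genes. Counting summits inside the gene as well, 6 of the 9 had an IDR summit, with N and fng added, against 36.6% of all protein-coding genes. Dl, Ser and H had none. These genes are long, and among the 6 of them that reach 20 kb, 2 had a promoter summit and 4 a summit of either kind, against 39.7% and 53.1% of all protein-coding genes of that length. With so few genes these shares are descriptions only. At promoters the members' share was above that of all genes but, among genes of at least 20 kb, below it.

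The sequence around the strongest IDR summit is shown for 5 of the 6 genes with one, as the DNA at which the tagged protein was found. Each window runs 100 bases to either side of the summit in dm6, on the strand of the gene, and stops where an annotated UTR begins. The summit is base 101 in each, and capitals mark matches to any of the 7 words searched on both strands. The words included TATCGATA, the core of the DNA replication-related element, and ATCGAT, a shorter word that lies inside it. A longer one was GGTCACACT, part of a motif common in fly core promoters. The Su(H) binding site was searched as GTGGGAA or, in its other usual form, as GTGAGAA. The last ones were GAGAGA, to which GAGA factor binds, and the E-box CACGTG. The N summit lies in an intron (X:3162424-3162624, plus strand), as do those of fng (3L:20930534-20930734, minus strand) and neur (3R:9033885-9034085, minus strand). Those of Su(H) (2L:15039342-15039487, plus strand) and kuz (2L:13550017-13550138, plus strand) lie just upstream of the TSS.
N: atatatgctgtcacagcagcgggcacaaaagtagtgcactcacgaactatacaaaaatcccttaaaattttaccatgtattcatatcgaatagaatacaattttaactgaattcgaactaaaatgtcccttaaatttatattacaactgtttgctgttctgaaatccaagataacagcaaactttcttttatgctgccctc
Su(H): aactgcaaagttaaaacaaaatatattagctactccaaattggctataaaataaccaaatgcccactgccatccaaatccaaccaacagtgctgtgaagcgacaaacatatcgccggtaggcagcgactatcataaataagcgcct
neur: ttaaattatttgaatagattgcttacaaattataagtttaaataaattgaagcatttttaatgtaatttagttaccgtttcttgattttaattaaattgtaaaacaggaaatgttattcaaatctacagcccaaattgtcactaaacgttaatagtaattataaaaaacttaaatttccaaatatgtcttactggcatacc
kuz: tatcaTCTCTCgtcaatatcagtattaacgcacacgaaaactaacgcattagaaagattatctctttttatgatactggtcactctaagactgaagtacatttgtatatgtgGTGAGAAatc
fng: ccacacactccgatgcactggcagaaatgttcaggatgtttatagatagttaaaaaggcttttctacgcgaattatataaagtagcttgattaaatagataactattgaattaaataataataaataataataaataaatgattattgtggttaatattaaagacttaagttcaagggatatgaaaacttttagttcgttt

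The windows are rich in A and T. Over all 16 IDR summits of the 9 genes, the GC content within 100 bp ran from 22.4 to 53.7% with a median of 33.3%, against a median of 36.3% for all IDR summits. Known words were few. TATCGATA occurred at 1 of the 16 summits, that of Su(H), or 6.25% against 5.69% of all IDR summits. GGTCACACT occurred at 1, a summit shared by neur and its neighbour hyx, or 6.25% against 2.93%. Both matches fall in 5' UTR sequence and are shown with 10 bases to either side. The Su(H) window above stops short of its match, and no window is shown for the summit shared by neur and hyx.
Su(H), 2L:15039485-15039512, plus strand: cctatcggacTATCGATAcaacatcaac
hyx and neur, 3R:9039776-9039804, plus strand: ccccgcctacGGTCACACTccacgcaacc
The nearest base of TATCGATA lay 53 bp from the Su(H) summit, so a 50 bp window misses it. The Su(H) site words were at 1 summit in all. GTGAGAA occurred there, at the kuz promoter, against 2.44% of all IDR summits, and the form GTGGGAA at 0 of 16, which allows a share of up to 18.8% by counting error alone, against 2.25%. The short word ATCGAT was found at 1 summit, that of Su(H), against 13.9% of all IDR summits. The GAGA word was found at 1, again the kuz promoter, against 10.5%, and the E-box at 0 of 16 against 2.37%. No word was at more than 1 of these summits.

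**Figure D1:**
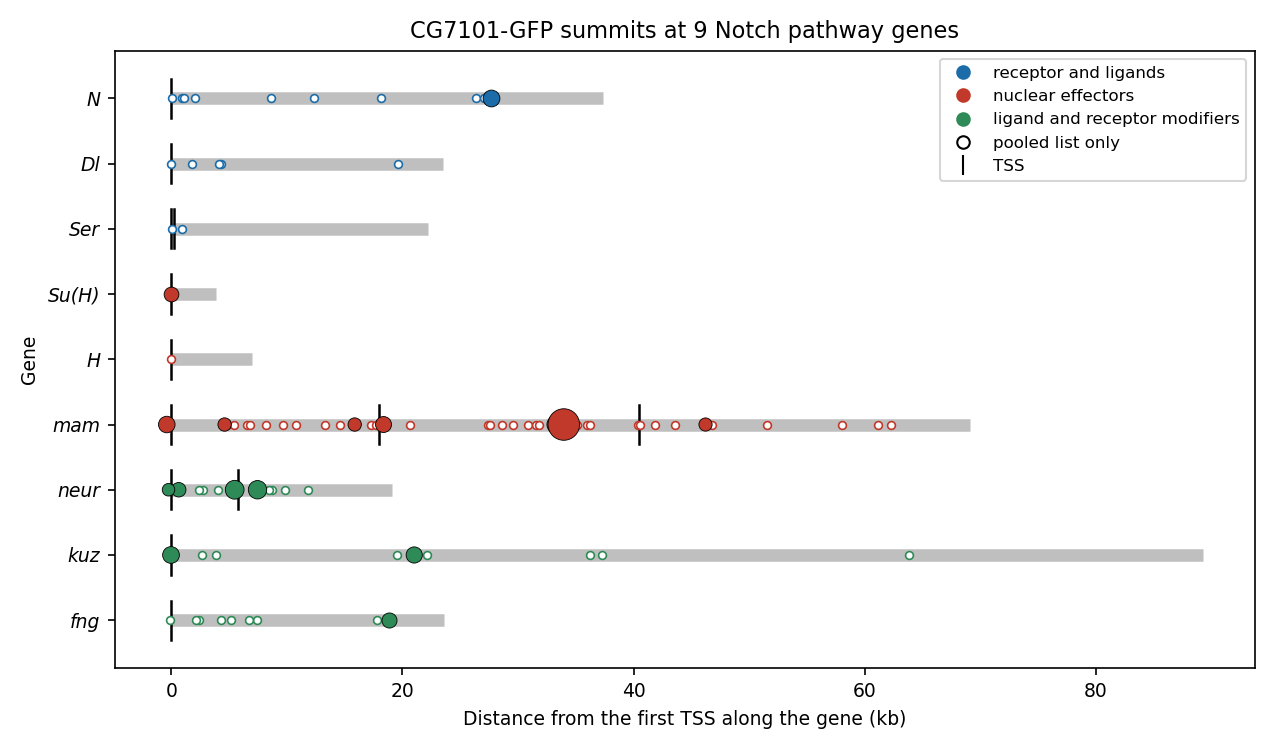
Positions of summits along 9 genes, as distance from the first TSS in kb. Grey bars are genes, vertical ticks are TSSs, filled circles are IDR summits with area growing with signal, and open circles are summits of the pooled list only. The receptor and ligand genes carry 1 filled circle, mam carries 7 and neur 4.

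The receptor gene N was bound inside the gene. N (FBgn0004647) spans 37.4 kb of X, from 3134870 to 3172221, with 1 TSS position, and its only IDR summit lay in an intron 27.7 kb downstream of that TSS, at 3162524. This peak had a pooled signal of 318 and rank 2297, with a signal of 160 and rank 2660 in replicate 1 and a signal of 150 and rank 2239 in replicate 2. The ranks were close, and the summit positions of the replicates lay within 6 bp of the pooled one. No other gene's TSS lay closer than the 10616 bp to that of CG18508. The N promoter had a weaker pooled peak in its 5' UTR, 47 bp downstream of the TSS, with a signal of 124.7 and rank 7486, below the lowest IDR signal. It was seen in both replicates, at ranks 7876 and 8354, and its q value was 4.83e-05. Every IDR summit of the Notch pathway genes had this same q value, so the value does not set this peak apart. In all, 10 pooled summits lay in N, of which 6 overlapped a peak of both replicates, and 111 of 284 other protein-coding genes within 20% of its length had at least as many.

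Dl and Ser, the genes of the 2 ligands, had weak peaks only. Dl (FBgn0000463, on 3R from 19302731 to 19326217, listed as Delta in the annotation) had its strongest pooled peak 31 bp upstream of the TSS, with a signal of 81.6 and rank 11468. That peak ranked 13087 in replicate 1 and 8670 in replicate 2, with a q value of 0.00048. Both replicates thus listed it, but far below the IDR cut. The other 4 pooled summits of Dl were intronic, with signals of 37.4 to 57.1.

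At Ser (FBgn0004197, on 3R from 27172090 to 27194267) the peak was weaker still. Its promoter summit, in the 5' UTR 83 bp downstream of the TSS at 27194267, had a signal of 28.9, close to the 27.5 at which the pooled list ends, a q value of 0.252 and no overlapping peak in either replicate. An intronic summit of Ser had a signal of 60.4 and overlapped a peak in both replicates, at ranks 26042 and 12859. The nearest IDR summits lay 77042 bp from the Dl TSS and 40296 bp from a Ser TSS, and for 4.14% and 10.8% of protein-coding genes the distance was greater.

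Among nuclear effectors, Su(H) was bound at its promoter. Su(H) (FBgn0004837, on 2L from 15039488 to 15043334) had a single pooled summit, 46 bp upstream of its TSS and outside the gene, in the IDR list with a signal of 229. It ranked 4640 in replicate 1, with a signal of 105, and 2788 in replicate 2, with a signal of 129. It stood higher in replicate 2. The next closest start, that of CIAPIN1, lay 581 bp from the summit. Of protein-coding genes with a pooled peak at a promoter, 34.0% had one at least as strong.

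H encodes Hairless, the antagonist that holds Su(H) in a repressing complex. H (FBgn0001169, on 3R from 20621938 to 20628915) had a summit 11 bp upstream of its TSS with a pooled signal of 68.1 and rank 13488, below the IDR list. The ranks were 15381 in replicate 1 and 10762 in replicate 2, with a q value of 0.00204. As at Dl, a weak promoter peak was found in both replicates, and the pooled list held no other summit in H.

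The gene mam carried the strongest peak of the 9 genes and the most summits. It spans 69.2 kb of 2R, from 13991203 to 14060356 (FBgn0002643), with 3 TSS positions. The peak from 14024932 to 14025351 had a pooled signal of 1303 and rank 233 of 6486. It was also strong in each replicate alone, with a signal of 755 and rank 211 in replicate 1 and a signal of 554 and rank 256 in replicate 2. Its summit at 14025169 lay in an intron, 34.0 kb from the first TSS and 6494 bp upstream of the most downstream one. A further IDR summit lay nearby at 14024525, with a signal of 417 and ranks of 1663 and 1581. The TSS of another gene nearest to this pair was that of CG18371, 3451 bp away.

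Other IDR summits of mam were weaker. The summit 387 bp upstream of the first TSS had a signal of 306 and ranks of 2027 and 2778, but it lay 109 bp from the TSS of RN-tre, a Rab GTPase-activating protein gene, and so was closer to the neighbour. The summit 372 bp downstream of the middle TSS had a signal of 280.2 and ranks of 2369 and 3413, with no other gene's TSS within 500 bp. Both promoter summits were therefore strong and found in each replicate, though at a promoter window of 250 bp neither counts. The remaining 3, at 13995819, 14007076 and 14037433, were intronic and had signals of 175, 175 and 168. At 14007076 the replicates differed most, with rank 3832 in replicate 1 and 8347 in replicate 2. The TSS farthest downstream, at 14031663, had 2 pooled summits with signals of 67.0 and 47.2 and no IDR summit.

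Weak peaks were dense across mam. The pooled list held 40 summits there, in 32 separate regions once overlapping peaks were joined. Their q values ran from 4.83e-05 to 0.256, the latter at 14052366. Summits of any q value were counted, in mam and in all other genes. Of the 40, 29 overlapped a peak in both replicates, as did 74.5% of all pooled peaks. Some neighbouring summits among the 29 overlapped the same replicate peaks. Each replicate alone gave similar numbers, 34 in replicate 1 and 42 in replicate 2. Of 138 other protein-coding genes within 20% of the length of mam, 8 had at least 40 pooled summits, with a median of 9, and 14 had at least 7 IDR summits, with a median of 1. Among these the genes most like mam by number of IDR summits were Hr4, sima and Drak, with 7 each. They had 18, 35 and 35 pooled summits. This likeness rests on 1 list of summits and on length alone.

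**Figure D2:**
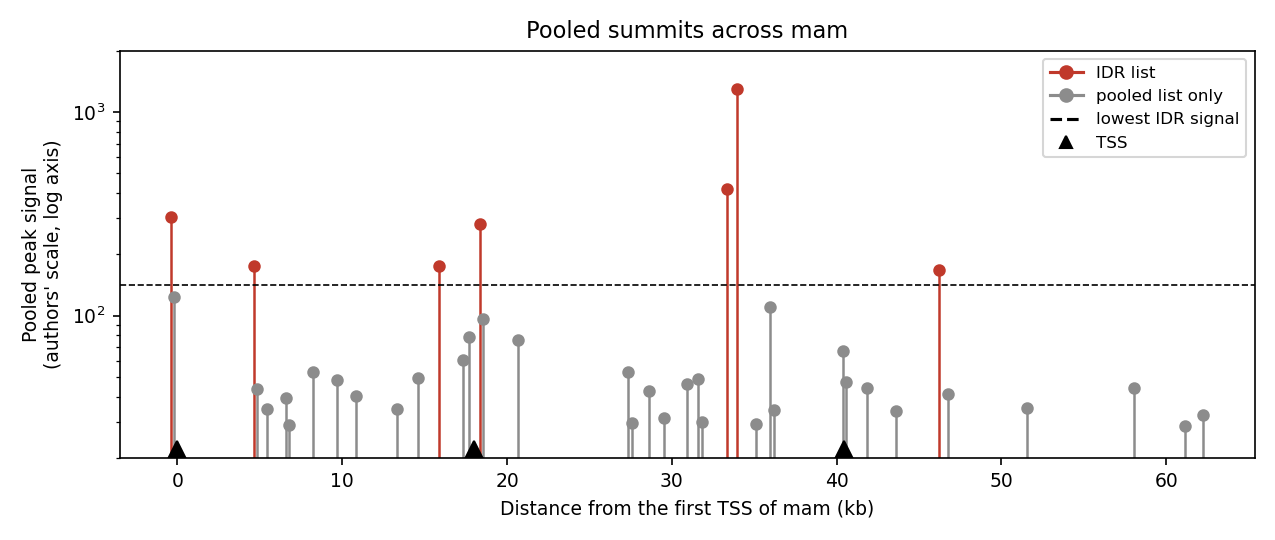
Signal of each pooled summit of mam on a log axis against distance from the first TSS in kb. Red stems are IDR summits, grey stems are summits of the pooled list only, triangles are TSSs and the dashed line is the lowest IDR signal of 142. The tallest stem, at 1303, stands between the middle and the last TSS.

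Of the genes that act on ligand or receptor, neur had the most IDR summits. It encodes Neuralized, a ubiquitin ligase that promotes endocytosis of Delta, and spans 19.1 kb of 3R from 9020348 to 9039471 (FBgn0002932), with 2 TSS positions. The strongest of its 4 IDR summits lay 254 bp upstream of the inner TSS at 9033731, inside an intron, with a signal of 416. It ranked 1149 in replicate 1 and 3115 in replicate 2, with signals of 292 and 118. The peak was thus higher in the order of replicate 1. A summit 1723 bp downstream of the same TSS had a signal of 396 and ranks of 2019 and 1463, the opposite order.

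The other 2 IDR summits of neur sat at its outer end, where hyx starts. Hyrax, the product of hyx, is a subunit of the Paf1 transcription elongation complex. The summit 237 bp upstream of the outer neur TSS had a signal of 146, only just inside the IDR list, and lay 58 bp from a hyx TSS. The one 644 bp downstream had a signal of 219 and lay 67 bp from a hyx TSS. Both were thus closer to hyx than to neur. With mam, neur was 1 of 2 members with at least 4 IDR summits, a number reached by 2.07% of all protein-coding genes. Among the 454 other protein-coding genes within 20% of the length of neur, 56 reached it.

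The protease gene kuz was bound at its TSS and once far inside. It spans 89.3 kb of 2L from 13550139 to 13639411 (FBgn0259984), and its promoter summit lay 22 bp upstream of its single TSS position with a signal of 315. This peak had a signal of 127 and rank 3607 in replicate 1 and a signal of 182 and rank 1698 in replicate 2, so it stood higher in replicate 2. The intronic summit at 13571163, 21.0 kb downstream, had a signal of 290.2 and ranks of 2952 and 2473. Although kuz is longer than mam, it held 10 pooled summits against 40, and genes within 20% of its length had a median of 12. The next closest start to the promoter summit was that of B4, 789 bp away.

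The gene fng encodes Fringe, the glycosyltransferase that changes how the receptor responds to each ligand. It spans 23.6 kb of 3L from 20925891 to 20949512 (FBgn0011591). Its only IDR summit under the rule lay in an intron 18.9 kb downstream of the TSS, with a signal of 242 and ranks of 3800 in replicate 1 and 2909 in replicate 2. The fng promoter had a pooled peak with a signal of 48.7 and a q value of 0.0238, which overlapped a peak of replicate 2, at rank 10971, and none of replicate 1. A stronger IDR peak, with a signal of 501, had its summit 755 bp from the fng TSS. That summit lies outside the 500 bp window and outside the gene, and the TSS nearest to it, 516 bp away, was that of lncRNA:CR45243.

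**Figure D3:**
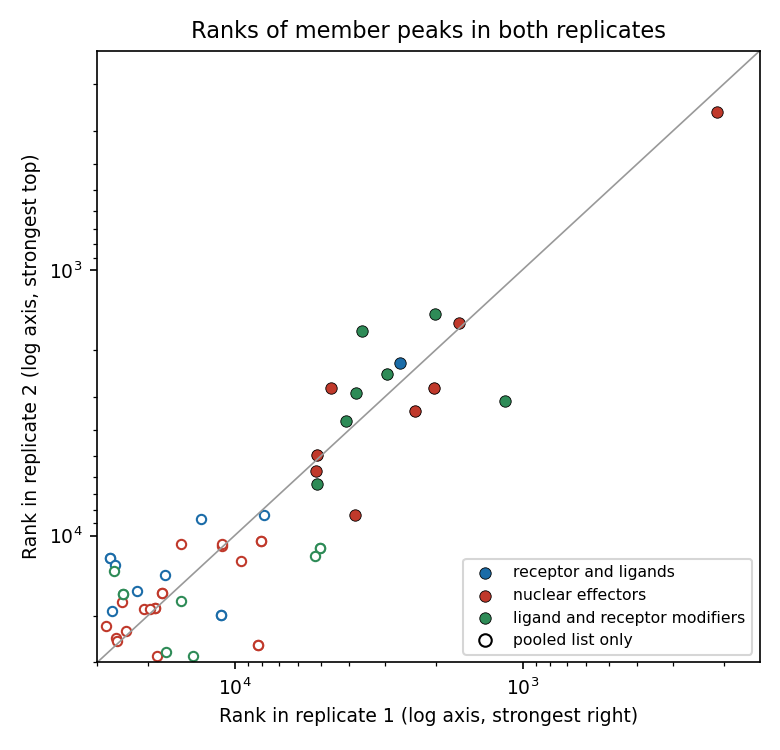
Rank of the overlapping peak in replicate 1 against replicate 2, on log axes with the strongest at the top right, for pooled summits of the 9 genes that overlap a peak in both replicates. Filled circles are IDR summits and open circles are summits of the pooled list only, coloured by role, and summits that share replicate peaks coincide. The mam peak at ranks 211 and 256 stands alone at the top right.

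The replicates listed the same strong peaks. All 16 IDR summits lay in peaks that overlapped a peak in both replicates, as did 99.6% of all IDR peaks, which were made from these replicates. Requiring an overlap of at least 50% of both peaks, 75.0% still did, a share that was not computed over all IDR peaks. Of all 89 pooled summits, 59 overlapped a peak in both replicates (66.3%, against 74.5% of all pooled peaks), 10 in replicate 1 only, 14 in replicate 2 only and 6 in neither. Of the 73 summits outside the IDR list, 43 were in both replicates, and the share over all pooled peaks outside that list was not computed. Neighbouring summits that overlap the same replicate peak are counted separately. Counted separately, the 9 genes had 78 summits in the list of replicate 1 and 84 in that of replicate 2.

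Receptor and ligands against nuclear effectors gave 1 IDR summit against 8, but 7 of the 8 were in mam. The 3 receptor and ligand genes cover 83.0 kb and had 1.2 IDR summits per 100 kb of gene. The 3 nuclear effector genes cover 80.0 kb and had 10 per 100 kb, and the 3 modifier genes had 5.30, against 4.84 over the main chromosome arms. Without mam, Su(H) and H had 1 summit between them, or 9.24 per 100 kb over a length of 10.8 kb. That rate rests on that 1 summit, which lay outside the gene. Summits up to 500 bp outside a gene enter the rates by role, while only gene length divides them. They are therefore not a like measure to the rate over the arms, least of all for short genes. The count thus differed by role mainly through 1 gene. At promoters the split was 0 of 3 receptor and ligand genes against 2 of 3 effector genes and 2 of 3 modifier genes. With a promoter window of 250 bp mam drops out, which leaves Su(H) as the only effector gene with an IDR summit at a promoter. Over the 2 groups of 3 genes no test was made, because genes are not replicates of a role.

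In the longer pooled list the roles were closer. All 9 genes had a pooled summit at a promoter, as did 62.9% of all protein-coding genes, and 66.6% had one at a promoter or inside. The receptor and ligand genes had 17 pooled summits, or 20.5 per 100 kb, the effectors 42, or 52.5 per 100 kb, and the modifiers 30, or 22.7 per 100 kb. Without mam the effectors had 18.5 per 100 kb, from summits that all lay outside the genes. The main chromosome arms as a whole had 22.4 pooled summits per 100 kb. That rate, unlike those by role, takes no summits from outside the length counted. Median pooled signals hardly varied, at 48.6 for the receptor and ligands, 47.7 for the effectors and 47.5 for the modifiers, against 60.9 for all pooled peaks.

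**Figure D4:**
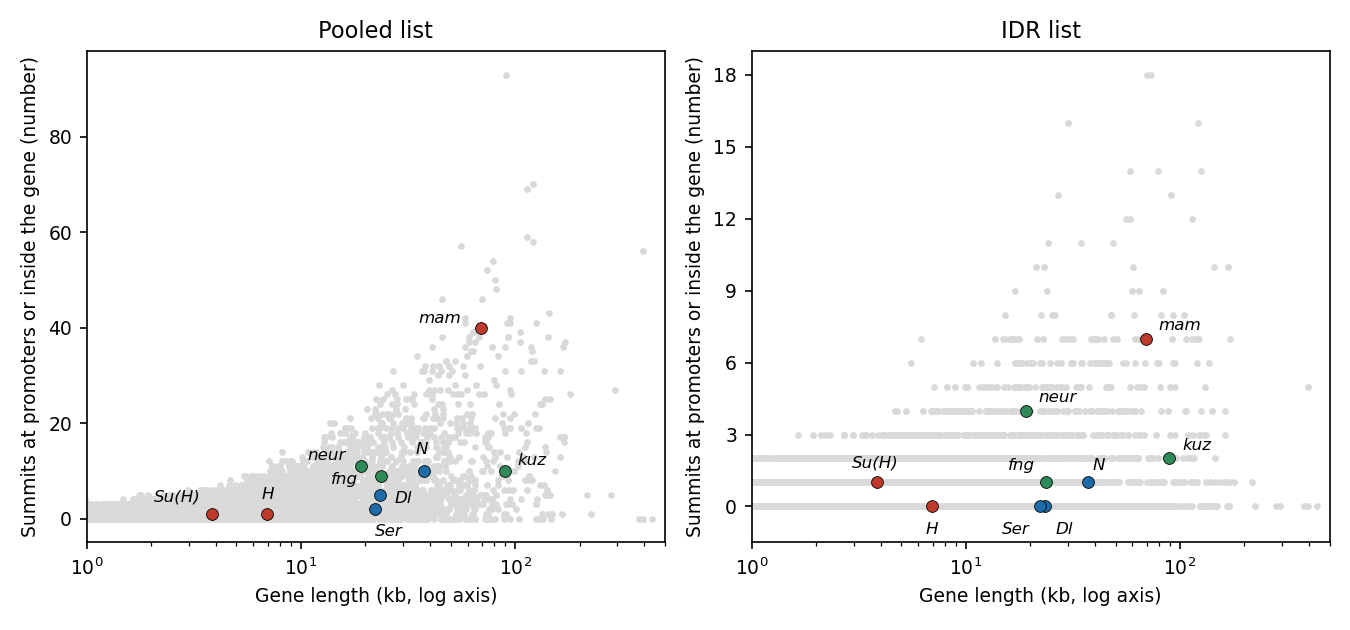
Number of summits at promoters or inside the gene against gene length on a log axis, for the pooled list (left) and the IDR list (right). Grey points are protein-coding genes of 1 to 500 kb and coloured points are the 9 genes, with blue for receptor and ligands, red for nuclear effectors and green for modifiers. In both panels mam lies among the higher points of its length, and in the left panel Ser, with 2 summits, among the lower ones.

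Introns of the assigned genes held most of the summits. The intronic share over all IDR or pooled summits was not computed, and the rule takes in summits anywhere inside a gene, so this is a description only. Of the 16 IDR summits 12 lay in an intron of the assigned gene, 4 upstream of it and none in one of its exons. Exons of other genes were not checked, and the neur summits at 9038827 and 9039708 also lay inside hyx. A promoter of the gene itself held 6 of the 16. Within 500 bp of a TSS of any gene lay 7 of the 16, a smaller share than the 62.8% of all IDR summits. The promoter summits had a median signal of 293 and the other 10 of 266, against 245 for all IDR peaks. By the assigned gene alone, 77 of the 89 pooled summits were intronic, 3 lay in a 5' UTR, 1 in a coding exon, 8 upstream of the gene and 0 in a 3' UTR.

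Other genes of the pathway had IDR summits at promoters in 22 of 31 cases where they encode its machinery and in 3 of 16 where they are known targets. At 11 of those 22 machinery genes and 1 of those 3 targets, another gene's TSS lay within 500 bp of the summit. A list of 51 further genes, all found in the annotation, had 25 with an IDR summit at a promoter (49.0%, against 33.3% of all protein-coding genes). The machinery genes, bound in 71.0% of cases, comprised 9 of 11 for endocytosis and ubiquitin, 6 of 9 nuclear cofactors, 3 of 3 for glycosylation and folding, 2 of 4 gamma-secretase subunits and 2 of 4 proteases. None of the 4 Bearded family genes was bound. Among the 11 genes of the Enhancer of split complex, the best known Notch targets, 2 were bound. These were E(spl)m3-HLH, with a signal of 315, and E(spl)m7-HLH, with 199.6. A pooled summit at a promoter or inside the gene was found for 7 of the 11, against 66.6% of all protein-coding genes. The third bound target was ttk, with a signal of 149.8.

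The strongest promoter peaks of that list were at Fur1 (signal 1226), a furin-type protease, numb (1135), an inhibitor of Notch handed to only 1 daughter at asymmetric divisions, gro (859), the corepressor Groucho, and aph-1 (801), a gamma-secretase subunit. Next came rumi (596), a protein O-glucosyltransferase, AP-2alpha (549), a clathrin adaptor subunit, skd (387), a Mediator subunit, and nej (370.4), the acetyltransferase CBP. Their ranks ran from 253 for numb to 2026 for skd in replicate 1, and from 271 for Fur1 to 3598 for nej in replicate 2. The rank of nej was 1543 in replicate 1. A peak at a promoter may belong to a neighbour. Another gene's TSS lay within 500 bp of the summit at 12 of the 25 bound genes, including Fur1, aph-1, rumi, AP-2alpha and skd, and none did at numb, gro and nej.

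**Figure D5:**
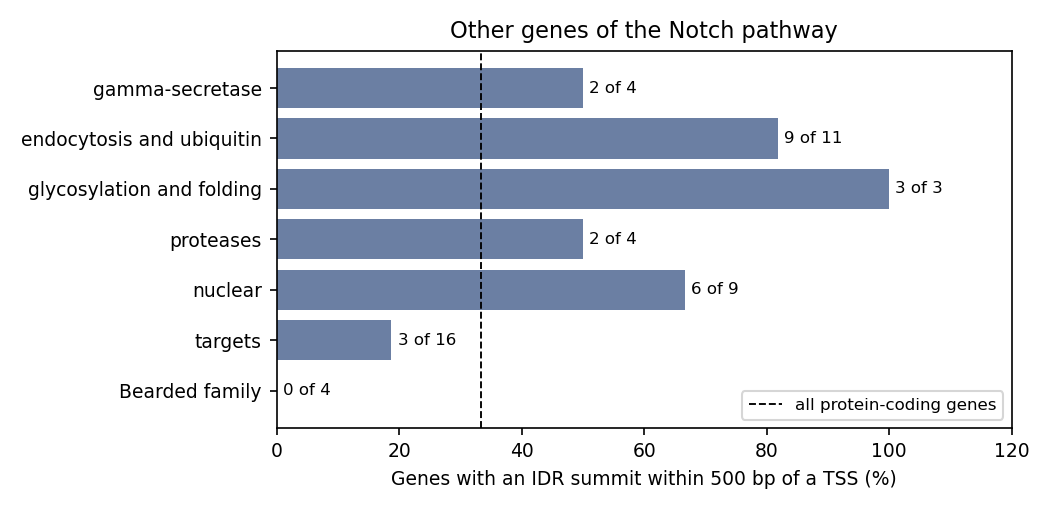
Percent of genes with an IDR summit at a promoter, for 7 groups of further Notch pathway genes, with the number bound of the number of genes beside each bar. The dashed line is the 33.3% of all protein-coding genes. The bars for targets and the Bearded family end left of the line.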

How the data were processed

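The authors called peaks against a control on each replicate alone and on both together, and derived the IDR peaks from those lists, all on dm6, per the file descriptions. Aligner, caller and IDR cut-off were not given in the sources used here. The signal of each peak is the authors' value and was used only within a list. The −log10 of the q value deposited by the authors was turned into q values. Genes came from Ensembl release 115 without transposable elements, and sequence from the RefSeq Release 6 assembly, the assembly of dm6. Dl is listed there as Delta.

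The 9 genes, the list of 51 others and the words were chosen with earlier results of these data known. Text names all 9, the 8 listed genes with the strongest IDR promoter signal, genes whose start lies near a summit, and the 3 genes most like mam by summits among those within 20% of its length. The word contexts, Enhancer of split genes, ttk, CG18371, CG18508, CIAPIN1, B4, and lncRNA:CR45243 were added after the values were seen. In each replicate list the strongest peak with at least 1 bp of overlap gave the rank. No test was made, since there is 1 group. The counting was tested on simulated data. Software was pandas 2.3.3, numpy 2.4.6, matplotlib 3.10.9 and scipy 1.17.1 under Python 3.11.15. Alternatives changed the promoter window, the peak list, the TSSs, the overlap and the word window.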

Additional observations from a re-analysis of the deposited data

How the results depend on the processing

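Of 65 values recomputed for 11 results under alternative settings, 45 stayed within 1.5 times the reported count or, for a share, within its 95% binomial interval, and 20 moved beyond that. These limits are wide for the few members and narrow for all genes. With the whole pooled list in place of the IDR list, 9 members had a promoter summit, the members had 89 summits, the receptor and ligand genes 17 and the nuclear effectors 42, and 39 genes of the list of 51 were bound. There, 9 members in place of 6 had a summit of either kind, and TATCGATA was at 1.12% of member summits in place of 6.25%, both within those limits. With the stronger part of the IDR list, 3243 peaks, the members had 9 summits, the nuclear effectors 4, the list of 51 had 12 bound genes, and TATCGATA was found at 0% of member summits, as it was with a 50 bp window. The share of protein-coding genes with an IDR summit at a promoter was 28.6% with a window of 250 bp, 36.8% with 1000 bp, 19.8% with the stronger part of the IDR list, 62.9% with the pooled list and 30.9% with only the first TSS of each gene. With summits inside the gene counted too, it was 33.5%, 38.7%, 22.8% and 66.6% under the first 4 of these. Overlap of at least 50% of both peaks held for 75.0% of member summits. From 1 replicate alone, with as many strongest peaks as the IDR list, 4 members had a promoter summit and 6 a summit of either kind in each case, and the members had 16 to 18 summits. The IDR list is a cut on pooled signal, so weaker promoter peaks, such as that of N at 124.7, are left out by that cut. No paired analysis was possible because there is 1 group. Depth is unknown, so a missing peak is not shown to be missing binding. The cause was not tested for any of these differences beyond the change of list, window or overlap itself.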
